A study of Mus musculus with 9 samples.

Results

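The 9 genes described here are 7 transcription factors of the epithelial-mesenchymal transition (EMT), Zeb1, Zeb2, Snai1, Snai2, Twist1, Twist2 and Prrx1, and 2 markers of the mesenchymal state, Vim and Cdh2. They were chosen by name, without a rule on measured values, and all 9 were found among the 12842 genes of the deposited table. The members and the gene lists used below were, however, chosen with earlier results of these data known. In EMT, epithelial cells give up their junctions and apical-basal polarity and take on a spindle shape, a vimentin cytoskeleton and the ability to migrate. The Zeb, Snail and Twist proteins bind short DNA motifs called E-boxes and repress junction genes such as Cdh1, and Prrx1 is a homeobox factor that can drive a related program. In prostate cancer these programs have been linked to invasion and spread.

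The study looked for drivers of metastatic progression in prostate cancer, and these libraries come from mouse cells in which the histone methyltransferase gene Nsd2 was silenced or to which a compound labelled MCTP was given. The cells were NPK cells, which were isolated from lung metastases of an engineered mouse model of prostate cancer, so every group shares the same engineered alleles. RNA-seq of polyadenylated RNA was done on 3 libraries of control cells, 3 of cells treated with MCTP and 3 of cells with an shRNA against Nsd2 (shNsd2). The methods name a vector with an shRNA against luciferase as the control for silencing, but the labels do not say whether the control libraries carried it, which shRNA against Nsd2 was used, or the dose and time of MCTP. The titles of the MCTP libraries carry the numbers 39, 40 and 41 for replicates 1, 2 and 3, whereas the study describes only number 39. That compound is reported as an inhibitor of histone lysine methyltransferases. The study used it on human DU145 prostate cancer cells as a putative inhibitor of NSD2, and cautions that it may lack specificity. If 40 and 41 are other compounds, the MCTP group holds 1 library per compound, and its differences, standard errors and p-values describe the mix. For shNsd2 a further label gives a different name for each replicate: Nsd2 for 1, Nsd3 for 2 and Nsd4 for 3. Numbers that climb by 1 with each replicate can also come from filling cells in a spreadsheet, and the labels do not settle this. Nsd2 RNA, given below, was lower than in control in each of the 3 shNsd2 libraries. The same 3 control libraries serve both comparisons with control. Nothing states that the replicates were separate cultures, so the p-values measure the spread between these samples, which may be technical.

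Values are given on the deposited log2 scale, where a difference of 1 is a doubling for well expressed genes. If these values were variance-stabilized, as the study's methods describe for other cells, the scale draws weakly expressed genes together and the differences of Twist1 and Prrx1, the lowest members, may be understated. The table holds no counts, and the depth of each library is unknown. Each comparison was tested with limma over all genes that passed a filter on low values, and a gene was called changed at an adjusted p under 0.05. All 9 members passed the filter in every comparison.

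The target gene was read ahead of the members as a check of the labels. Nsd2, listed under its older symbol Whsc1, was at 12.48, 12.43 and 12.42 in the control libraries, at 12.15, 12.21 and 12.07 with MCTP and at 11.56, 11.61 and 11.68 with shNsd2. The 3 shNsd2 libraries were lowest and the MCTP libraries lay between them and the control libraries, with no overlap. Nsd2 differed from control by -0.83 in shNsd2 (adjusted p = 2.26e-06) and by -0.30 with MCTP (adjusted p = 0.00562), or by -0.33 (adjusted p = 0.000272) without MCTP replicate 2, the library described next.

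MCTP replicate 2, the library with the number 40, stood apart from the rest of its group. Its root mean square distance from the mean of the other MCTP libraries was 0.209 over all genes, against 0.0814 and 0.158 for replicates 1 and 3, and its distance from the control mean was 0.225, against 0.285 and 0.339. Tests of the members, counts of calls in the pathway lists and tests of the other genes shown in all 9 libraries are therefore given with and without this library where they involve MCTP. Other values, among them counts of groups without overlap and of cell type markers, use all 3 MCTP libraries. Whether the number 40 has a part in these distances was not tested.

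As a check of the labelled cell type, markers of prostate epithelium were read in the same libraries. The luminal keratin Krt8 was at 16.21, 16.35 and 16.28 and Krt18 at 15.25, 15.47 and 15.44 in the control libraries. The prostate homeobox gene Hoxb13 was at 10.25, 10.32 and 10.28. Both luminal keratins and Hoxb13 were thus well expressed in the same libraries as vimentin, and whether in the same cells was not measured. Of the basal markers, the keratin Krt15 was high, at 12.53, 12.56 and 12.56, the keratin Krt14 was lower, at 8.78, 8.98 and 8.95, and Trp63 was weak, with a control mean of 4.87 (percentile 10.8), whereas the adhesion molecule Epcam was near the bottom of the table, at 3.55, 3.54 and 3.55. Pbsn, Dpp4, Krt5 and Krt17 had no values in the table under these symbols.

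In shNsd2 cells, 7 of the 9 members passed the test against control. Zeb1, Zeb2, Twist1, Prrx1, Vim and Cdh2 were lower and Twist2 was higher, while Snai1 and Snai2 did not pass. This share stands beside 47.8% of all 12205 genes tested, of which 23.1% were higher and 24.8% lower, so a call by itself is common in this comparison. For all 9 members the 3 shNsd2 libraries and the 3 control libraries did not overlap, which was so for 57.2% of all genes. The 7 calls became 4 with all 9 libraries in 1 fit, without shNsd2 replicate 1 or without shNsd2 replicate 2. Calls over all genes fell as well in these fits, from 5836 to 4320, 4453 and 4332 in that order. In MCTP cells, 3 of the 9 members passed: Zeb1 and Prrx1 were lower and Vim was higher, beside 35.2% of 12216 genes called, 18% higher and 17.2% lower. The groups did not overlap for Zeb1, Snai1, Snai2, Prrx1 and Vim, beside 50.6% of all genes. Without MCTP replicate 2, 5 of the 9 members passed, Zeb2 and Snai2 joining the others, beside 60.4% of 12203 genes. None passed when any control library, MCTP replicate 1 or MCTP replicate 3 was left out. In those fits only 2029 to 2830 genes were called over the whole table, in place of 4305. Between shNsd2 and MCTP, 4 of the 9 members passed, beside 43.2% of 12217 genes, 20.6% higher and 22.6% lower in shNsd2, and these same 4 were the members without overlap, beside 55% of all genes. Vim and Twist1 were lower in shNsd2 than with MCTP, and Snai2 and Twist2 were higher. Without MCTP replicate 2 the count was again 4, beside 63.6% of 12191 genes. All later counts without this library stand beside these shares, 60.4% with MCTP against control and 63.6% for shNsd2 against MCTP. Calls over all genes also fell for other left-out libraries named below. In shNsd2 against control they were 4763 and 5120 without control replicate 2 or 3. Between shNsd2 and MCTP they were 3361 without MCTP replicate 1, in place of 5276. Without shNsd2 replicate 1, 2 or 3 they were 3564, 3424 and 3414 there.

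**Figure D1:**
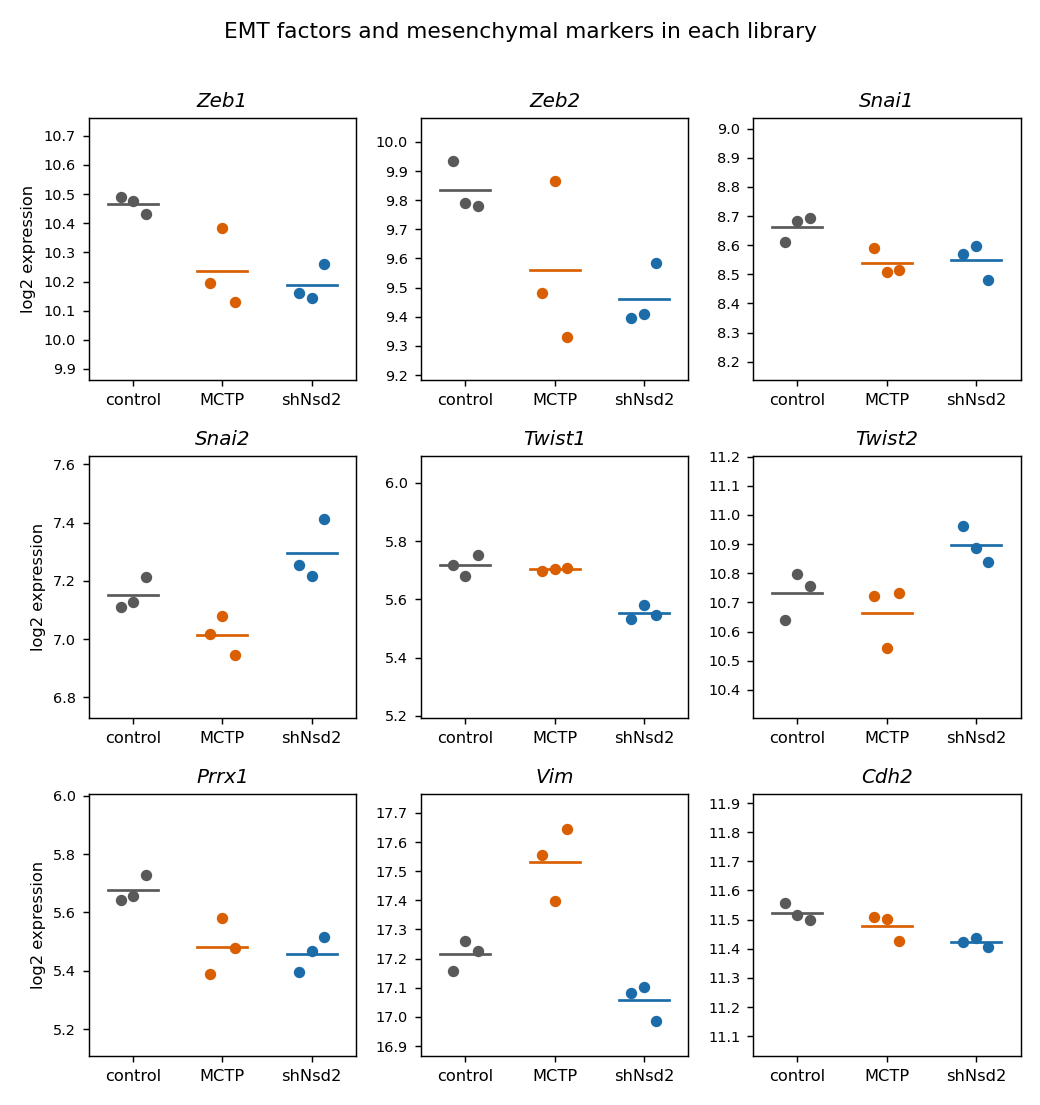
Expression of the 9 genes (log2, vertical axis, each panel spanning the same range of values) in each library of the control, MCTP and shNsd2 groups, with points for libraries in replicate order and lines for group means. Vim lies between 17.40 and 17.65 with MCTP, above all control libraries, and between 16.99 and 17.10 with shNsd2, below them.

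To compare the genes with each other, levels were set per length, as the log2 value less the log2 of the transcript length in kilobases. On this scale the control means were 16.08 for Vim, 9.39 for Twist2, 9.25 for Cdh2, 7.96 for Snai1, 7.93 for Zeb1, 6.65 for Zeb2, 6.14 for Snai2, 5.01 for Twist1 and 2.97 for Prrx1. Vim stood far above the rest, and Twist2 was the most abundant of the factors. Only Snai1 and Zeb1, neighbours in this order, overlapped between their control libraries. The order was the same with MCTP, where Snai1 and Zeb1 were at 7.84 and 7.70. With shNsd2, Snai2 at 6.28 and Zeb2 at 6.27 were at nearly the same per-length level. By the plain log2 value in control, Vim was in percentile 100 of the table, Cdh2 in percentile 82.7, Twist2 in 69.5, Zeb1 in 64.6, Zeb2 in 53, Snai1 in 35.6, Snai2 in 22.6, Twist1 in 15.1 and Prrx1 in 14.9. The members are scattered over the genome (GENCODE M21, GRCm38): Zeb1 lies at chr18:5591860-5775467, Cdh2 at chr18:16588877-16809246, Zeb2 at chr2:44983632-45117395, Vim at chr2:13573927-13582826 and Snai1 at chr2:167538195-167542814. Twist2 lies at chr1:91801461-91848028, Prrx1 at chr1:163245119-163313710, Snai2 at chr16:14705852-14709385 and Twist1 at chr12:33957671-33959829.

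Zeb1 and Zeb2 are large zinc finger repressors that bind paired E-boxes and are held down in epithelial cells by the miR-200 family. Zeb1 was at 10.49, 10.48 and 10.43 in the control libraries, at 10.19, 10.38 and 10.13 with MCTP, and at 10.16, 10.14 and 10.26 with shNsd2. All control libraries were above all treated libraries, and the MCTP and shNsd2 libraries overlapped. The difference of shNsd2 from control was -0.28 (SE 0.0424, n = 3 against 3, adjusted p = 0.000804 from limma), a ratio of 0.825 on the linear scale. With MCTP the difference was -0.23 (SE 0.0718, adjusted p = 0.0407), and -0.30 (adjusted p = 0.000599) without MCTP replicate 2. Zeb1 differed between shNsd2 and MCTP by -0.048 (95% confidence interval -0.22 to 0.13, adjusted p = 0.628), and the sign turned without MCTP replicate 2 (0.026, adjusted p = 0.674). The fall of Zeb1 in shNsd2 passed the test in every alternative tried, with differences from -0.31 to -0.23. The fall with MCTP lost its call under median centring (-0.20, adjusted p = 0.052) and without control replicate 1 (adjusted p = 0.119), control replicate 2 (0.12), control replicate 3 (0.0879), MCTP replicate 1 (0.144) or MCTP replicate 3 (0.108).

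Zeb2 was at 9.93, 9.79 and 9.78 in the control libraries, at 9.48, 9.87 and 9.33 with MCTP, and at 9.39, 9.41 and 9.58 with shNsd2. The shNsd2 libraries were all below the control libraries, whereas MCTP replicate 2 was as high as the control libraries and the other MCTP libraries were low. In shNsd2, Zeb2 fell by 0.37 (SE 0.0634, adjusted p = 0.00147), a ratio of 0.773 to control with a 95% confidence interval from 0.699 to 0.853. This was the largest difference from control among the members in shNsd2, and Zeb2 ranked 898 of 12205 genes by size. With MCTP the difference of -0.28 did not pass (SE 0.129, adjusted p = 0.126), and it was -0.43 (adjusted p = 0.00049) without MCTP replicate 2 and -0.16 (adjusted p = 0.332) without MCTP replicate 3. When transcript GC content was corrected for, library by library, the difference with MCTP was -0.067 (adjusted p = 0.325), while that with shNsd2 was -0.33 (adjusted p = 1.44e-05). For shNsd2 against MCTP the difference was -0.10 (adjusted p = 0.581), and -0.26 (adjusted p = 0.00369) after the GC correction. With a library left out it ranged from -0.21 without MCTP replicate 3 to 0.057 (adjusted p = 0.505) without MCTP replicate 2. Zeb2 and Zeb1 have long transcripts, of 9124 and 5801 nucleotides, and the Zeb2 transcript has the lowest GC content of the members, 40.6%.

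Snai1 and Snai2 encode the zinc finger repressors Snail and Slug, which bind single E-boxes, and Snail protein is short-lived. Snai1 was at 8.61, 8.68 and 8.69 in the control libraries, at 8.59, 8.51 and 8.51 with MCTP, and at 8.57, 8.60 and 8.48 with shNsd2. The control libraries were above all treated libraries, by a narrow margin, and the treated groups overlapped. The differences from control did not pass in shNsd2 (-0.11, adjusted p = 0.0814) or with MCTP (-0.12, adjusted p = 0.116; -0.11 and 0.135 without MCTP replicate 2). Without control replicate 1 the difference in shNsd2 was -0.14 (adjusted p = 0.041), and after the GC correction the differences were -0.18 in shNsd2 (adjusted p = 0.00115) and -0.23 with MCTP (adjusted p = 0.00646). Under quantile normalization the difference in shNsd2 was smaller, -0.074 (adjusted p = 0.289). Snai1 differed between shNsd2 and MCTP by 0.011, with a 95% confidence interval from -0.12 to 0.14 (adjusted p = 0.888), and its sign depended on the library left out, from -0.013 to 0.045, with -0.0037 (adjusted p = 0.958) without MCTP replicate 2.

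Snai2 was at 7.11, 7.13 and 7.21 in the control libraries, at 7.02, 7.08 and 6.95 with MCTP, and at 7.25, 7.22 and 7.41 with shNsd2. The libraries fell in 3 bands without overlap, MCTP lowest, control between and shNsd2 highest, though control replicate 3 and shNsd2 replicate 2 were nearly level. Neither difference from control passed: it was 0.14 in shNsd2 (SE 0.0574, adjusted p = 0.0653) and -0.14 with MCTP (SE 0.0554, adjusted p = 0.0875). The difference between the treated groups did pass, at 0.28 (SE 0.0651, adjusted p = 0.0115), a ratio of 1.22, and it passed in every alternative tried, with the smallest value, 0.17 (adjusted p = 0.0159), after the GC correction. Without MCTP replicate 2, Snai2 differed by -0.17 from control with MCTP (adjusted p = 0.0242) and by 0.31 between shNsd2 and MCTP (adjusted p = 0.00193). After the GC correction the difference of MCTP from control turned to 0.036 (adjusted p = 0.677), and that of shNsd2 was 0.21 (adjusted p = 0.00922). In shNsd2 the difference also passed under quantile normalization (0.19, adjusted p = 0.015) and median centring (0.16, adjusted p = 0.0345), and it was smaller, 0.086 (adjusted p = 0.183), without shNsd2 replicate 3.

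Twist1 and Twist2 are basic helix-loop-helix factors of mesoderm and connective tissue that act as dimers with E proteins. Twist1 was at 5.72, 5.68 and 5.75 in the control libraries, at 5.70, 5.71 and 5.71 with MCTP, and at 5.53, 5.58 and 5.55 with shNsd2. The MCTP libraries lay inside the range of the control libraries, and the shNsd2 libraries were below both groups. Twist1 fell by 0.16 in shNsd2 (SE 0.0323, adjusted p = 0.00331), and the call was kept in every alternative tried. With MCTP the difference was -0.013 (95% confidence interval -0.095 to 0.069, adjusted p = 0.794; -0.014 and 0.794 without MCTP replicate 2). It was -0.11 (adjusted p = 0.108) after the GC correction, outside that interval, and 0.021 (adjusted p = 0.694) under median centring. Against MCTP, Twist1 in shNsd2 differed by -0.15 (SE 0.0305, adjusted p = 0.00697), or by -0.15 (adjusted p = 0.00542) without MCTP replicate 2, and by -0.11 (adjusted p = 0.087) after the GC correction, which did not pass, and by -0.097 (adjusted p = 0.041) under quantile normalization.

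Twist2 was at 10.64, 10.80 and 10.76 in the control libraries, at 10.72, 10.54 and 10.73 with MCTP, and at 10.96, 10.89 and 10.84 with shNsd2. The shNsd2 libraries were above all others, and the control and MCTP libraries overlapped. Twist2 was the only member to pass as higher in shNsd2 than in control, by 0.17 (SE 0.0506, adjusted p = 0.0244), a ratio of 1.12. The call was lost without shNsd2 replicate 1 (0.13, adjusted p = 0.0989) or shNsd2 replicate 2 (0.17, adjusted p = 0.0628), and with all 9 libraries in 1 fit (adjusted p = 0.0721), and the difference was positive in every alternative tried, from 0.12 to 0.20. With MCTP the difference was -0.066 (adjusted p = 0.484), -0.0042 (adjusted p = 0.953) without MCTP replicate 2 and -0.12 (adjusted p = 0.0542) after the GC correction. Between shNsd2 and MCTP it was 0.23 (SE 0.066, adjusted p = 0.0257), and 0.17 (adjusted p = 0.0105) without MCTP replicate 2. This call was lost without MCTP replicate 1 (adjusted p = 0.0546), shNsd2 replicate 1 (0.1) or shNsd2 replicate 2 (0.0769). Twist1 and Twist2 thus passed in opposite directions in shNsd2. How reads shared by similar stretches of paired genes such as Twist1 and Twist2, Zeb1 and Zeb2 or Snai1 and Snai2 were assigned, and whether counting used the strand, is not given in the sources used here.

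Prrx1 is a paired-type homeobox factor of mesenchyme. It was at 5.64, 5.66 and 5.73 in the control libraries, at 5.39, 5.58 and 5.48 with MCTP, and at 5.39, 5.47 and 5.52 with shNsd2. All treated libraries were below all control libraries, and the treated groups covered much the same range. Prrx1 fell by 0.22 in shNsd2 (SE 0.0404, adjusted p = 0.00236), which passed in every alternative tried. With MCTP it fell by 0.19 (SE 0.0541, adjusted p = 0.0286), and the difference was -0.24 (adjusted p = 0.00151) without MCTP replicate 2. The call with MCTP was lost without control replicate 1 (adjusted p = 0.0593), control replicate 2 (0.0707), control replicate 3 (0.0934), MCTP replicate 1 (0.1) or MCTP replicate 3 (0.0672), and after the GC correction the difference was -0.049 (adjusted p = 0.528). Prrx1 differed between shNsd2 and MCTP by -0.023 (95% confidence interval -0.15 to 0.11, adjusted p = 0.757). The sign turned without MCTP replicate 2 (0.026, adjusted p = 0.643), without shNsd2 replicate 1 (0.0092) and under quantile normalization (0.043), and after the GC correction the value was -0.10 (adjusted p = 0.104).

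Vim encodes vimentin, the intermediate filament protein of mesenchymal cells. It was at 17.16, 17.26 and 17.23 in the control libraries, at 17.55, 17.40 and 17.65 with MCTP, and at 17.08, 17.10 and 16.99 with shNsd2. The 3 groups did not overlap: MCTP was highest, control lay between and shNsd2 was lowest. With MCTP, Vim was higher by 0.32 (SE 0.0867, adjusted p = 0.0266), a ratio of 1.25 with a 95% confidence interval from 1.08 to 1.43, and by 0.39 (adjusted p = 0.00123) without MCTP replicate 2. Under quantile normalization the rise was less than that, 0.14 (adjusted p = 0.0162). In shNsd2 it fell by 0.16 (SE 0.0537, adjusted p = 0.0375), a ratio of 0.896. Between shNsd2 and MCTP the difference was -0.48 (SE 0.0828, adjusted p = 0.00358), a ratio of 0.719, and -0.54 (adjusted p = 5.39e-05) without MCTP replicate 2. It was the largest difference of any member in any comparison, and it passed in every alternative tried. The other calls were less firm. The rise with MCTP was not called without control replicate 1 (adjusted p = 0.0976), control replicate 2 (0.0748), control replicate 3 (0.0841), MCTP replicate 1 (0.0975) or MCTP replicate 3 (0.0731). The fall in shNsd2 was not called without control replicate 2 (0.119), control replicate 3 (0.103), shNsd2 replicate 1 (0.0776), shNsd2 replicate 2 (0.0757) or shNsd2 replicate 3 (0.103), nor under median centring (-0.14, adjusted p = 0.091) or with all 9 libraries in 1 fit (0.123).

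Cdh2 encodes N-cadherin, the adhesion protein that replaces E-cadherin in many cells that pass through EMT. It was at 11.56, 11.51 and 11.50 in the control libraries, at 11.51, 11.50 and 11.43 with MCTP, and at 11.42, 11.44 and 11.41 with shNsd2. The shNsd2 libraries were all below the control libraries, by a small margin, and the MCTP libraries overlapped both. Cdh2 fell by 0.10 in shNsd2 (SE 0.0331, adjusted p = 0.0332), the smallest called difference among the members. The call was lost without control replicate 1 (adjusted p = 0.061), control replicate 2 (0.0808), shNsd2 replicate 1 (0.0942), shNsd2 replicate 2 (0.0868) or shNsd2 replicate 3 (0.0665), under median centring (-0.083, adjusted p = 0.083) and with all 9 libraries in 1 fit (0.0712). With MCTP the difference was -0.045 (adjusted p = 0.486), and between shNsd2 and MCTP it was -0.055 (adjusted p = 0.344), or -0.057 (adjusted p = 0.331) and -0.043 (adjusted p = 0.387) without MCTP replicate 2. The value with MCTP ranged from -0.06 to -0.011 over the alternatives.

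**Figure D2:**
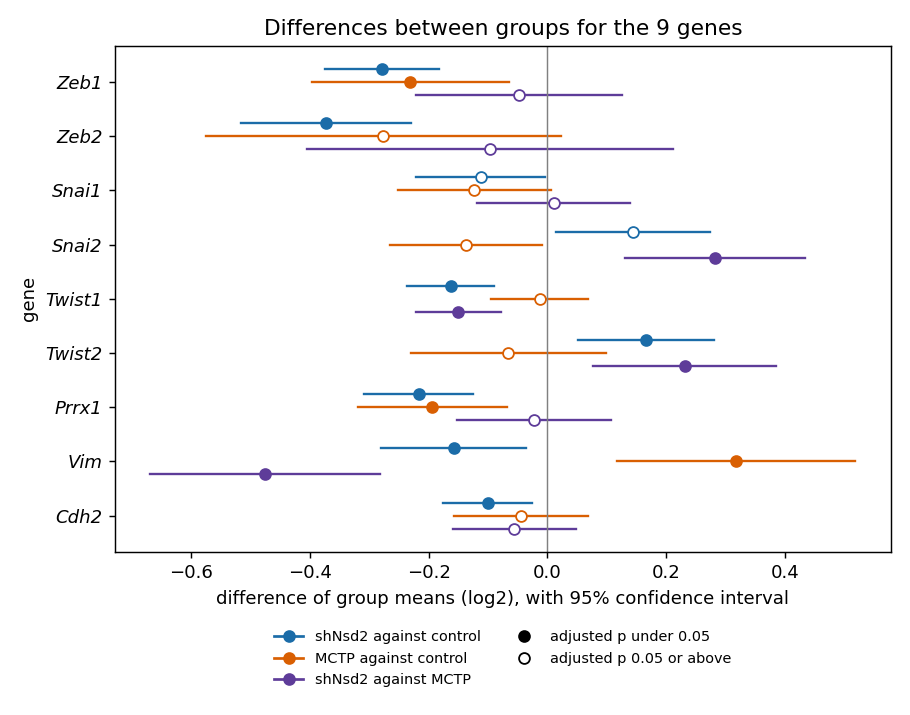
Differences of group means (log2, horizontal axis) for each of the 9 genes in the 3 comparisons, with 95% confidence intervals as lines and filled points where the adjusted p was under 0.05. Vim lies at 0.32 with MCTP and at -0.16 with shNsd2, and Twist2 at 0.17 is the filled point to the right of 0 for shNsd2 against control, a call that was lost without shNsd2 replicate 1 or 2 and with all 9 libraries in 1 fit.

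The members thus did not move as a block. The 7 factors had a median difference of -0.16 in shNsd2, beside 0.0020 over all genes tested, and a median size of difference of 0.17 beside 0.12. With MCTP the median of the factors was -0.14 beside -0.0062, and the median size 0.14 beside 0.15. Zeb1, Zeb2, Snai1, Twist1, Prrx1 and Cdh2 had negative differences from control in both treated groups, though not all passed, whereas Vim, Snai2 and Twist2 had differences of opposite sign. For Snai2 this was not so after the GC correction (0.21 and 0.036), and the sign of Twist1 with MCTP turned under median centring. As a test without a model, the exact 2-sided permutation test over 3 and 3 libraries gave p = 0.1, the smallest it can give, for every member in shNsd2 against control. In these bulk libraries, fewer cells of a type and less RNA per cell cannot be told apart.

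For each member, genes with the most similar profile over the 9 libraries were found by Pearson's r among the 6421 tested genes with a mean above the median of the table, which leaves out the weakly expressed members. These values describe profiles in which the 3 groups themselves differ, and have no test. Zeb1 was most like Sh3glb1 (0.994) and Prkg2 (0.994), and Zeb2 was most like Zbtb38 (0.995) and Magt1 (0.987). Snai1 was closest to Fmnl3 (0.95) and Mbtps1 (0.928), and Snai2 to Cr1l (0.963) and Zfp110 (0.962). Twist1 was closest to Trak1 (0.974) and Robo1 (0.973), Twist2 to Mrps27 (0.996) and Fam86 (0.995), and Prrx1 was close to Lass6 (0.916). Vim was closest to St3gal3 (0.996) and Gm2a (0.994), and Cdh2 to Prkrir (0.966) and Zcchc24 (0.95). By the same measure Zeb1 and Zeb2 had an r of 0.964 with each other, and Snai2 and Vim had an r of -0.917.

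The best known target of the factors, Cdh1, encodes E-cadherin. It was at 11.70, 11.79 and 11.84 in the control libraries, at 11.46, 11.44 and 11.41 with MCTP, and at 11.58, 11.58 and 11.56 with shNsd2. All treated libraries were below all control libraries. Cdh1 fell by 0.20 in shNsd2 (adjusted p = 0.00368) and by 0.34 with MCTP (adjusted p = 0.00325; -0.34 and 0.000421 without MCTP replicate 2), the same sign as Zeb1 and Prrx1 in both comparisons. Among the 25 genes of epithelial adhesion and polarity that were tested, 11 were higher and 5 lower in shNsd2, with a median of 0.072. The share called was 64% beside 47.8% of all genes in shNsd2, 56% beside 35.2% with MCTP and 48% beside 43.2% between them. The desmosome gene Dsp (1.33), the polarity gene Pard6b (0.54) and the protease inhibitor Spint1 (0.41) were highest, and Dsc2 (-0.40), Cldn4 (-0.39) and Cdh3 (-0.24) lowest. With MCTP, 10 were higher and 4 lower, with a median of 0.12, led by Dsp (1.16), Mal2 (0.65) and St14 (0.39) on the high side and by Tjp1 (-0.34), Cdh1 and Pkp1 (-0.34) on the low side. The 14 calls with MCTP became 8 without control replicate 2, control replicate 3 or MCTP replicate 1, 9 without control replicate 1 and 19 without MCTP replicate 2. In shNsd2 against MCTP, 5 were higher, led by Pard6b (0.79), Tjp1 (0.39) and Pkp1 (0.28), and 7 were lower, led by Cldn4 (-0.72), Mal2 (-0.68) and F11r (-0.32), and these 12 calls became 15 without MCTP replicate 2. Epcam was below the filter, at 3.55 to 3.58 with MCTP and 3.71 to 3.76 with shNsd2.

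Of the factors that maintain the epithelial state, 8 were tested, and 75% were called beside 47.8% of all genes in shNsd2, 50% beside 43.2% between the treated groups, and 37.5% with MCTP, about the 35.2% of all genes. In shNsd2, Elf3 (0.27), Klf4 (0.22), Cbfa2t3 (0.19) and Esrp2 were higher, and Rbm47 (-0.21) and Klf5 (-0.20) were lower. With MCTP, Klf4 (0.41) and Esrp2 (0.31) were higher and Klf5 (-0.52) was lower. Here 5 were called without MCTP replicate 2 or with all 9 libraries in 1 fit, and 2 without control replicate 2. The contrast of shNsd2 with MCTP had Klf5 (0.31) and Cbfa2t3 (0.14) higher and Klf4 (-0.20) and Rbm47 (-0.17) lower, 4 calls that became 2 without MCTP replicate 1, shNsd2 replicate 1 or shNsd2 replicate 2 and 6 without MCTP replicate 2. The medians were 0.12, 0.05 and 0.040 in these comparisons. Grhl2 was below the filter in all groups, at 3.48 to 3.62, and Esrp1 and Ovol2, both repressed by Zeb1 in other settings, had no values in the table.

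Of 21 other mesenchymal genes, 15 were lower in shNsd2 and 2 higher, beside 24.8% and 23.1% of all genes, with a median of -0.21. Vim and Cdh2 were lower there too. The matricellular gene Ctgf (-0.64), the integrin Itgb1 (-0.59) and the collagen cross-linker Loxl2 (-0.49) were lowest, the fibronectin gene Fn1 fell by 0.42 (adjusted p = 9.41e-05), and the actin bundler Fscn1 (0.54) and Cyr61 (0.21) were higher. With MCTP, 8 were higher, led by the smooth muscle actin gene Acta2 (3.02), Cyr61 (0.95) and Ctgf (0.91), and Itgb1 (-0.32) was lower, with a median of 0.10, while 12 did not pass, so that 42.9% were called beside 35.2% of all genes. Fn1 differed by -0.095 there (adjusted p = 0.366; -0.082 and 0.383 without MCTP replicate 2). Without that library 13 were called in place of 9, and without control replicate 1, 2 or 3 the count was 7, 6 or 6. In shNsd2 against MCTP, 18 of 21 (85.7% beside 43.2% of all genes called) were lower and none higher, with a median of -0.35 beside 0.0072 over all genes, led by Acta2 (-2.88), Ctgf (-1.55) and Cyr61 (-0.74), and 19 were called without MCTP replicate 2. The 3 genes that did not pass there were named after their values were seen: Axl (-0.047), Col4a2 (-0.13) and Fscn1 (0.098).

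Acta2 and Tagln also mark smooth muscle cells, and their levels moved with Vim under MCTP. Acta2 was at 5.83, 6.03 and 5.98 in the control libraries, at 8.91, 8.81 and 9.16 with MCTP, and at 6.04, 6.18 and 6.01 with shNsd2. Without MCTP replicate 2 its difference from control was 3.09 (adjusted p = 2.07e-08). The summed level of the 3 smooth muscle markers in the table, of 5 in the list, lay between 6.27 and 6.42 on the log2 scale in control, between 8.89 and 9.23 with MCTP and between 6.40 and 6.54 with shNsd2, with Acta2 as the most abundant gene. Cnn1 was near the lowest values of the table, at 2.24 in control and 2.36 to 2.47 with MCTP. Myh11 and Des had no values in the table under these symbols. The summed level of 4 of 8 fibroblast markers, led by Col3a1, lay between 10.92 and 11.12 in control, between 10.81 and 10.96 with MCTP and between 10.75 and 10.76 with shNsd2. This sum was lowest with shNsd2, where Vim was lowest, but it was not raised with MCTP, where Vim was highest. Of the 3 fibroblast markers tested, 2 were lower and 1 higher in shNsd2, and 1 was lower with MCTP. Of 7 leukocyte markers only Cd68 was in the table, at 6.50 to 6.60 in control, 7.15 to 7.44 with MCTP and 6.72 to 6.78 with shNsd2. Of 5 endothelial markers only Cdh5 was in the table, between 3.47 and 3.71 in all 9 libraries. The summed level of 6 of 9 luminal markers, led by Krt8, lay between 16.97 and 17.11 in control, between 17.07 and 17.36 with MCTP and between 16.83 and 16.98 with shNsd2, and that of 3 of 5 basal markers, led by Krt15, between 12.64 and 12.68, between 12.68 and 12.94 and between 11.70 and 11.83. In shNsd2 the basal sum followed Krt15, which fell by 1.20 (adjusted p = 5.65e-07). Krt14 was higher by 0.78 there (adjusted p = 2.22e-05), and Trp63 was lower by 0.094 (adjusted p = 0.0464). With MCTP, Krt14 was higher by 1.19 (adjusted p = 0.000274), or by 1.28 (adjusted p = 2.75e-06) without MCTP replicate 2. Krt15 differed by 0.065 with MCTP (adjusted p = 0.52), or by 0.15 (adjusted p = 0.0154) without MCTP replicate 2, so the basal sum did not follow Krt15 alone there. The part of these cell types in the values of Vim and the other members was not tested.

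Among 18 other factors associated with EMT, 7 were higher and 8 lower in shNsd2, with a median of 0.036. The share called was 83.3% in shNsd2, 66.7% with MCTP and 72.2% between them, beside 47.8%, 35.2% and 43.2% of all genes. The highest were Tead2 (0.37), Tcf3 (0.31), an E protein that pairs with Twist factors, and Fosl1 (0.30), and the lower ones included Sox9 (-0.42) and Tcf4 (-0.38). With MCTP, 7 were higher, led by the helix-loop-helix inhibitors Id3 (0.81) and Id1 (0.74) and by Prrx2 (0.45), the paralog of Prrx1, and 5 were lower, led by Sox9 (-0.66), Hmga2 (-0.61) and Tcf4 (-0.51), with a median of 0.016. These 12 calls became 7 without control replicate 2, 6 without MCTP replicate 1 and 14 without MCTP replicate 2. Against MCTP, 6 were higher in shNsd2, led by Tcf3 (0.30), Fosl1 (0.27) and Hmga2 (0.26), and 7 were lower, led by Id3 (-0.69), Id1 (-0.53) and Foxq1 (-0.48), with a median of 0.017, and 16 were called without MCTP replicate 2. Of the E proteins, Tcf3 was thus higher in shNsd2, and Tcf4 and Tcf12 (-0.15, adjusted p = 0.0162) were lower.

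The Zeb and Snail proteins repress through cofactors, of which 14 were tested. With all libraries the share called was close to that of all genes, at 50% beside 47.8% in shNsd2, 35.7% beside 35.2% with MCTP and 50% beside 43.2% between them. In shNsd2, 4 were higher, led by Suv39h1 (0.30), Ehmt2 (0.21) and the Zeb partner Ctbp1 (0.19, adjusted p = 0.00332), and Mta3 (-0.21), Rcor1 (-0.11) and Kdm1a (-0.10) were lower, with a median of 0.054. These 7 calls became 4 with all 9 libraries in 1 fit and without control replicate 2, control replicate 3, shNsd2 replicate 1 or shNsd2 replicate 2. With MCTP none was higher and 5 were lower, led by Suz12 (-0.63), Rcor1 (-0.32) and Dnmt1 (-0.32), with a median of -0.13, and Ctbp1 differed by 0.088 (adjusted p = 0.265; 0.14 and 0.0308 without MCTP replicate 2). The 5 became 2 without control replicate 1, control replicate 2, MCTP replicate 1 or MCTP replicate 3, 10 without MCTP replicate 2, and 8 under the GC correction, under quantile normalization or with all 9 libraries in 1 fit. In shNsd2 against MCTP, 6 were higher, led by Suz12 (0.70), Suv39h1 (0.39) and Dnmt1 (0.38), and Mta3 (-0.20) was lower, with a median of 0.16, and the 7 calls became 4 without MCTP replicate 1 and 8 without MCTP replicate 2.

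Of 13 genes that set the stability of Snail and related proteins, 2 were higher in shNsd2, Fbxo45 (0.18) and Ctdsp1 (0.12), and 3 were lower, the kinase gene Gsk3b (-0.38), Pak1 (-0.28) and the ubiquitin ligase gene Fbxl5 (-0.20), with a median of -0.059. The share called was 38.5% beside 47.8% of all genes in shNsd2, 38.5% beside 35.2% with MCTP and 46.2% beside 43.2% between them, so calls were about as common here as elsewhere. The 5 calls became 2 with all 9 libraries in 1 fit and without control replicate 3 or shNsd2 replicate 2, and 3 without control replicate 2 or shNsd2 replicate 1. With MCTP none was higher and 5 were lower, led by the ligase genes Fbxo11 (-0.64), Fbxl5 (-0.57) and Fbxl14 (-0.27), with a median of -0.22, and the 5 became 3 when any control library, MCTP replicate 1 or MCTP replicate 3 was left out and 8 without MCTP replicate 2 or under the GC correction. For shNsd2 against MCTP, Fbxo11 (0.54), Fbxl5 (0.37) and Fbxo45 (0.31) led 5 that were higher, and Pak1 (-0.23) was lower, with a median of 0.17. These 6 calls became 2 without MCTP replicate 1, 3 without shNsd2 replicate 2 or shNsd2 replicate 3 and 9 without MCTP replicate 2. Levels of the Zeb, Snail and Twist proteins were not measured here.

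Of 14 genes of pathways that induce the factors, 8 were lower and none higher in shNsd2, led by Tgfb1 (-0.40), Hif1a (-0.40) and Bmp4 (-0.25), with a median of -0.16. The share called was 57.1% beside 47.8% of all genes in shNsd2, 50% beside 35.2% with MCTP and 64.3% beside 43.2% between them. With MCTP, Notch1 (0.61), Bmp4 (0.58) and Tgfb2 (0.50) led 4 that were higher, and Hif1a (-0.74), Jag1 (-0.47) and Smad3 (-0.18) were lower, with a median of -0.076. The 7 calls became 11 without MCTP replicate 2, and 5, 5 and 6 without control replicate 1, 2 or 3. In shNsd2 against MCTP, Tgfbr1 (0.56), Jag1 (0.41) and Smad3 (0.21) were higher and 6 were lower, led by Bmp4 (-0.84), Notch1 (-0.84) and Tgfb2 (-0.66), with a median of -0.074, and 12 were called without MCTP replicate 2.

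Promoter windows from 250 bases before to 50 bases after the transcription start (RefSeq, GRCm38.p6) were searched for the E-box letters CACCTG, or CAGGTG on the opposite strand, which the Zeb and Snail proteins are known to bind. Windows were at hand for 6 of the 9 members, and 1 of their 9 windows held the motif, 11.1%, beside 20.2% of all 32851 windows of the table. Among the epithelial adhesion and polarity genes, 20 of 29 windows (69%) held it, and among the epithelial regulators 4 of 14 (28.6%), where some windows of the same gene overlap and some belong to genes without values in the expression table, Ovol2 among them. Snai1 held the single match among the members, and Dsp and Ocln, which rose in both treated groups, held matches as well. Cldn4 (-0.39 in shNsd2, 0.33 with MCTP) and Pard6b (0.54 and -0.25), which moved in opposite directions, held 2 matches each, while the window of Spint1, higher in both groups, held none. The windows of Snai1, Dsp and Ocln are printed with that of Prrx1 and the most upstream one of Zeb2, members that fell in shNsd2 in every alternative tried, as Zeb1 did, and which hold no match. Each runs 5′ to 3′ on the strand of its gene, with the E-box in capitals.
Snai1 (chr2:167537945-167538244, plus strand): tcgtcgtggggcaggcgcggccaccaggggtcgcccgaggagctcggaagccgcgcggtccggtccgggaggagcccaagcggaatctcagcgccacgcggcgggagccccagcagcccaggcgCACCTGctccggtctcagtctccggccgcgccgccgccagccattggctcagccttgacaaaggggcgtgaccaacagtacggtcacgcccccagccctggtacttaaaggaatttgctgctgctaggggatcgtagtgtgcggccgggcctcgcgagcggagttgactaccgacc
Dsp (chr13:38151044-38151343, plus strand): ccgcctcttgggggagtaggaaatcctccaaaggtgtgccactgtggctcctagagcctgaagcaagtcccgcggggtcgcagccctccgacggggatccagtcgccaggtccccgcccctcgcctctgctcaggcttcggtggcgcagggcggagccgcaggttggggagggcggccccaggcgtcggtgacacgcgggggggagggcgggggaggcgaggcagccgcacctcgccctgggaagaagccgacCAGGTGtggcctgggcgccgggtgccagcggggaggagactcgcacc
Ocln (chr13:100552449-100552748, minus strand): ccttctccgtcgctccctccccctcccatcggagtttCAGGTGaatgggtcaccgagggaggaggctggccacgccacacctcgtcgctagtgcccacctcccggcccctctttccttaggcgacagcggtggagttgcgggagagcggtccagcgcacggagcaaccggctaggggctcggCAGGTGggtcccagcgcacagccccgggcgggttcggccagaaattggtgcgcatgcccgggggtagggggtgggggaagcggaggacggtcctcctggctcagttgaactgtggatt
Prrx1 (chr1:163313601-163313900, minus strand): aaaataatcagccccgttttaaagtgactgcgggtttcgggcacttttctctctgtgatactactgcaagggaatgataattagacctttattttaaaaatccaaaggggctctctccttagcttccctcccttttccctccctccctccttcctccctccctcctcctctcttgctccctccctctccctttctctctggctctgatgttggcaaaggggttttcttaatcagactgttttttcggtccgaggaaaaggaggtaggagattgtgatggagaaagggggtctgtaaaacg
Zeb2 (chr2:45117393-45117692, minus strand): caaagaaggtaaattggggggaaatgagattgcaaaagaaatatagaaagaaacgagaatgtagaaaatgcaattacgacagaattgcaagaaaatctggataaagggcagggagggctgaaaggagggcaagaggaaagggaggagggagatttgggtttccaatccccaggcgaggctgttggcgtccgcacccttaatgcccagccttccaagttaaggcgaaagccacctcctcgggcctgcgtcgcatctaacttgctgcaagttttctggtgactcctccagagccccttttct
In the Snai1 window the match starts at position -126 from the transcription start, and in the Dsp window at position 4. The Ocln window holds 2 matches. Dsp was at 8.23, 8.28 and 8.22 in the control libraries, at 9.29, 9.43 and 9.48 with MCTP, and at 9.60, 9.54 and 9.57 with shNsd2, so all treated libraries were above all control libraries. Ocln differed from control by 0.37 in shNsd2 (adjusted p = 0.000608) and by 0.27 with MCTP (adjusted p = 0.0115), and without MCTP replicate 2 the differences with MCTP were 0.26 (adjusted p = 0.00515) for Ocln and 1.14 (adjusted p = 1.61e-06) for Dsp. A match is only a description of the letters, and binding at these windows was not measured.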

How the data were processed

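RNA-seq values of 9 libraries of NPK cells were analysed, in 3 groups of 3 taken from the sample titles. The authors deposited 1 table of log2 values for 12842 genes, which were used without further scaling. The submitters' processing notes name bcl2fastq 1.8.4, TopHat, Cufflinks, DESeq, DESeq2 and the build mm9. The methods name DESeq2 for normalizing counts and stabilizing their variance in the lineage-marked cells of the study, and do not say whether the NPK values were made the same way. The table has 3 further columns of values that match no sample described here, and they were not used.

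The members and all gene lists were chosen with earlier results of these data known. A gene entered a comparison if 3 or more of its 6 values exceeded a floor of 3.78, which is the median among the lowest 10% of values. R 4.3.3 and limma 3.58.1 fitted each pair of groups, 2-sided, with eBayes moderation that follows the mean level. P-values were adjusted by Benjamini-Hochberg across the genes of that comparison, with a threshold of 0.05. Groups of 3 were also compared by exact permutation tests. The code was checked on simulated data.

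A symbol listed under more than 1 identifier enters a list once, by its topmost entry, which among the lists concerns Sox4 alone. All members were named. Of each other list, up to 3 called genes at either end of the log2 difference were named in each comparison, with Cdh1, Epcam, Fn1, Esrp1, Ovol2, Grhl2 and Ctbp1 as standard partners or targets. Ocln, Cldn4, Pard6b and Spint1 were named for their promoter windows, and Krt14, Krt15, Trp63, Tcf12, Esrp2, Axl, Col4a2 and Fscn1 after their values were seen. Transcript lengths, GC content and coordinates come from GENCODE M21 (GRCm38), matched by Ensembl identifier for 12513 genes (97.4%), and promoter windows from RefSeq (GRCm38.p6), neither of which is the build in the notes. The length of a gene is that of its longest coding transcript.

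Alternatives were no filter, all 9 libraries in 1 fit, the replicate number as a block, with and without a correction of each library for GC content (lowess, span 0.3), quantile normalization, median centring, eBayes without a trend, and leaving out each library in turn. Plots were made in Python 3.11.15 with matplotlib 3.10.9.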

Additional observations from a re-analysis of the deposited data

How the results depend on the processing

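Over all alternatives, 306 of 378 differences of members kept their sign and their side of the threshold, 46 lost the call, 13 gained it and 13 changed sign. The members called in shNsd2 against control fell from 7 to 4 with all 9 libraries in 1 fit and to 6 under median centring, rose to 8 under quantile normalization and to 9 under the GC correction, and ranged from 4 to 7 when a library was left out. Those called with MCTP against control ranged from 0 to 5, being 0 without any control library, MCTP replicate 1 or MCTP replicate 3 and 5 without MCTP replicate 2. Between shNsd2 and MCTP they ranged from 3 to 4. The number of genes called over the whole table ranged from 2029 to 7372 for MCTP against control (4305 with all 6 libraries) and from 3361 to 7756 for shNsd2 against MCTP (5276). For shNsd2 against control it ranged from 4320 to 6766 (5836). Under the replicate block, 4515, 3399 and 3794 genes and 4, 1 and 3 members were called in shNsd2 against control, MCTP against control and shNsd2 against MCTP. The members not called under it were Twist2 (adjusted p = 0.0679), Vim (0.113) and Cdh2 (0.107) in shNsd2 against control, Zeb1 (0.0565) and Vim (0.0808) with MCTP, and Twist2 (0.0595) in shNsd2 against MCTP. With the GC correction as well, the replicate block called 9, 3 and 4 members. The replicate numbers do not pair the libraries, since same-numbered libraries deviated from their group means with correlations from -0.805 to 0.612. All changes of sign were among differences that did not pass the test. With MCTP against control, Snai2 turned to 0.036 under the GC correction, with the replicate block (adjusted p = 0.67) or without it (adjusted p = 0.677), and Twist1 to 0.021 under median centring and 0.0043 without control replicate 3, in a range from -0.031 when a library was left out. In shNsd2 against MCTP, Prrx1 turned to 0.043 under quantile normalization and Snai1 to -0.0055 under median centring. When a library was left out there, Zeb1 ranged from -0.10 to 0.026, Zeb2 from -0.21 to 0.057, Snai1 from -0.013 to 0.045 and Prrx1 from -0.070 to 0.026. Zeb1, Zeb2 and Prrx1 were highest without MCTP replicate 2. The changes under a left-out library come with fewer samples, and the cause of the others was not tested. Median centring moved the share of higher calls with MCTP from 51.1% to 59.7%. The deposited log2 values carry no depth, so the precision of the weakly expressed Twist1 and Prrx1 rests on the replicates alone.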
